A study of Mus musculus with 8 samples.

Results

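A set of 10 miRNAs known from kidney tubule or from epithelium in general was examined in sorted CD34+/CD105- cells of mouse renal arteries: miR-192, miR-194, miR-215, miR-204, miR-203, miR-200a, miR-200b, miR-200c, miR-141 and miR-429. They were chosen by name, taking the mouse assay of each and leaving out passenger-strand assays, which gave 10 of the 750 miRNA assays in the deposited table. The cells came from 4 mice after bilateral clamping of the renal arteries and reperfusion (ischemia/reperfusion mice 1 to 4) and from 4 mice after sham surgery (sham mice 1 to 4). All 8 samples share the same digestion with collagenase and the same flow cytometric gate, and each is RNA from 1 mouse. The mouse strain, age and sex, the length of ischemia and of reperfusion, and the number of sorted cells are not stated in the labels. The gate was set on surface CD34 and CD105, and no assay here measures either protein or an epithelial surface protein.

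The readout was the threshold cycle (Ct) of a real-time PCR assay, which is lower where more of the RNA is present. An assay was called detected in a mouse when its Ct was below 35. A well with no Ct was reported as undetermined, and all wells of the 10 miRNAs either had a Ct below 35 or were undetermined.

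The 10 miRNAs have textbook roles in epithelial cells. The miR-200 family (miR-200a, miR-200b, miR-200c, miR-141 and miR-429) is expressed across epithelia and holds down the transcription factors ZEB1 and ZEB2, which repress E-cadherin. miR-192, miR-194 and miR-215 are abundant in kidney tubule, gut and, for miR-192 and miR-194, liver. miR-204 is known from kidney tubule and the pigment epithelium of the eye, and miR-203 restricts the proliferative potential of epidermal stem cells. Cells of the vessel wall are not known as a main site of the miR-200 family, whereas miR-126 is the characteristic endothelial miRNA.

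The mature sequences are shown because the 10 miRNAs fall into groups by seed and by genomic cluster, along which the detection results are set out below. They are the RefSeq sequences on GRCm38.p6, written 5′ to 3′ with the seed (bases 2 to 8) in capitals. All 10 names matched; the assay names give no arm, so the arm known as the guide strand was taken.
miR-192: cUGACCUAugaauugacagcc
miR-215: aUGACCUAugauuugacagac
miR-194: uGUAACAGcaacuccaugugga
miR-204: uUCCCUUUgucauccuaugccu
miR-203: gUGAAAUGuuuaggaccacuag
miR-200a: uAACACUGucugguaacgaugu
miR-141: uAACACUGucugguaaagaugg
miR-200b: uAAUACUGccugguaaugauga
miR-200c: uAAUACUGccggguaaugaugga
miR-429: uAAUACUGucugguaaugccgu
miR-192 and miR-215 share a seed and differ at 3 of 21 bases. Within the miR-200 family, miR-200a and miR-141 share a seed and differ at 2 of 22 bases. miR-200b, miR-200c and miR-429 share another seed, and miR-200b differs from miR-200c at 2 and from miR-429 at 4 of the 22 bases compared. The 10 miRNAs thus carry 6 seeds.

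They are encoded at 11 loci, because the same mature miR-194 comes from 2 hairpins. Mir194-2 lies 115 bases from Mir192 (chr19:6264643-6264932 for the pair, plus strand). Mir194-1 lies 195 bases from Mir215 within the span of the protein-coding gene Iars2 (chr1:185313319-185313692, plus strand). Mir429, Mir200a and Mir200b lie together within the long non-coding gene Gm13648 (chr4:156053905-156055750, minus strand). Mir141 and Mir200c lie 336 bases apart (chr6:124717914-124718390, minus strand). Mir204 lies within the span of Trpm3, which encodes a cation channel (chr19:22750605-22750672, plus strand), and Mir203 at chr12:112130880-112130955 on the plus strand.

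Of the 10 miRNAs, 4 were detected in at least 1 mouse, namely miR-192, miR-194, miR-203 and miR-204, and 6 in none. Of all 750 assays, 187 (24.9%) were detected in at least 1 mouse, and of the 375 assays on the card that holds all 10, 134 (35.7%) were. The share of 4 in 10 was thus close to that of the card. None of the 10 was detected in all 8 mice. Of the 750 assays only 54 were, so a count of 0 in 10 was near the share of all assays. In mouse-by-miRNA pairs, the 10 miRNAs were detected in 4 of 40 (10%) after ischemia/reperfusion and in 9 of 40 (22.5%) after sham surgery. For all assays the shares were 11.97% of 3000 after ischemia/reperfusion and 16.9% of 3000 after sham surgery. On the card that holds the 10, the shares were 17.1%, 15.5%, 16.0% and 14.9% in ischemia/reperfusion mice 1 to 4. They were 23.5%, 12.3%, 26.9% and 31.7% in sham mice 1 to 4. Sham mouse 2 apart, the card as a whole thus also gave higher shares in the sham mice. In these bulk samples fewer cells of a type and less RNA per cell cannot be told apart.

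**Figure D1:**
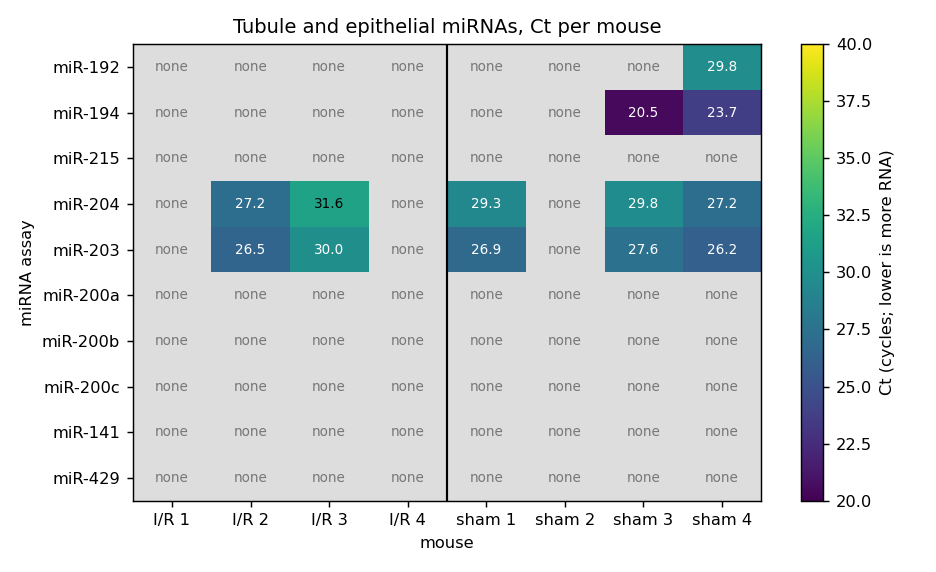
Ct of each of the 10 tubule and epithelial miRNAs (down the page) in each mouse (across, ischemia/reperfusion, I/R, left of the line and sham right of it); colour and number give the Ct in cycles and grey wells were undetermined. The miR-200 family and miR-215 have no Ct in any mouse, and miR-203 and miR-204 are detected in the same 5 mice.

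The miR-200 family was undetermined in every mouse. miR-200a, miR-200b, miR-200c, miR-141 and miR-429 had no Ct in any of 4 ischemia/reperfusion mice or 4 sham mice. Additional human-labelled assays for miR-200b and miR-200c, on the other card, were undetermined in all 8 samples too. A count of 0 of 8 mice, both groups together, has an exact 95% binomial (Clopper-Pearson) upper bound of 36.9%, which covers counting error only. Whether these assays perform in this RNA was not tested, since no epithelial sample was among the 8. miR-215, which shares its seed with miR-192, likewise had no Ct in any mouse.

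miR-194 was detected in sham mice 3 and 4 and in no other mouse. Its Ct was undetermined in ischemia/reperfusion mice 1 to 4, against 20.5 in sham mouse 3 and 23.7 in sham mouse 4, and undetermined in sham mice 1 and 2. The groups overlap, as 2 of the 4 sham mice match all ischemia/reperfusion mice. Where it was detected, miR-194 was among the more abundant assays by Ct, at rank 7 of 142 detected assays in sham mouse 3 and rank 20 of 163 in sham mouse 4. Its Ct minus that of endothelial miR-126-3p was -3.503 cycles in sham mouse 3, where miR-194 came up earlier, and 1.55 cycles in sham mouse 4. Such distances between assays also hold differences in how well each assay amplifies.

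The level was also taken relative to the deposited reference, as delta Ct, the Ct minus 1 reference value per mouse and card. The delta Ct of miR-194 was 1.47 in sham mouse 3 and 5.80 in sham mouse 4. A Ct of 35 corresponds to a delta Ct of 14.0, 12.6, 14.5 and 13.3 in ischemia/reperfusion mice 1 to 4, and of 14.3, 12.6, 16.0 and 17.1 in sham mice 1 to 4. At the mean delta Ct of its 2 sham wells, miR-194 would have had a Ct between 24.2 and 26.0 in the ischemia/reperfusion mice, and of 24.3 and 26.1 in sham mice 1 and 2. That mean leaves out the undetermined sham wells, and the part of the detection limit in them was not tested. Of the 41 assays with a Ct below 25 in at least 1 mouse, 30 were detected in all 8 mice. Only miR-194 and rno-miR-190b, the second picked after its values were seen, were detected in 4 or fewer. The lowest Ct of rno-miR-190b was 14.7. The Ct of 25 was used for this count alone, and miR-194 met it only through its 2 sham wells. The count is thus no test of the absence of miR-194 in the other mice.

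miR-192, the tubule miRNA encoded beside Mir194-2, was detected in sham mouse 4 alone. It was undetermined in ischemia/reperfusion mice 1 to 4, against a Ct of 29.8 in sham mouse 4 and no Ct in sham mice 1 to 3. In sham mouse 4 its Ct was 6.10 cycles above that of miR-194, and it ranked 107 of 163 detected assays. In sham mouse 3, where miR-194 had its lowest Ct, miR-192 had none. The delta Ct of miR-192 in sham mouse 4 was 11.9, which would give a Ct between 32.4 and 34.3 in the ischemia/reperfusion mice. That value rests on a single well. Of the miRNAs encoded in the pair of miR-194 clusters, miR-194 was thus detected in 2 mice, miR-192 in 1 and miR-215 in 0.

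**Figure D2:**
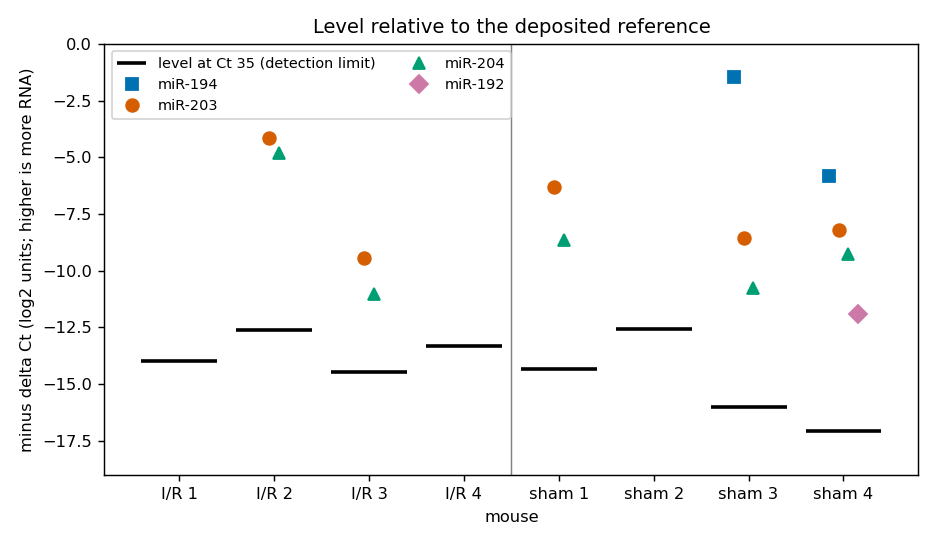
Minus delta Ct (log2 units, higher is more RNA) of miR-194, miR-203, miR-204 and miR-192 in each mouse, ischemia/reperfusion (I/R) at the left and sham at the right; black bars mark the level that a Ct of 35 has in that mouse, and a missing symbol is an undetermined well. miR-203 lies above miR-204 in all 5 mice that have them, and ischemia/reperfusion mouse 2 has the highest value of each.

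Detection of miR-203 coincided with that of miR-204 in 5 mice, ischemia/reperfusion mice 2 and 3 and sham mice 1, 3 and 4. The Ct of miR-203 was 26.5 and 30.0 in ischemia/reperfusion mice 2 and 3, against 26.9, 27.6 and 26.2 in sham mice 1, 3 and 4. The Ct of miR-204 was 27.2 and 31.6 in ischemia/reperfusion mice 2 and 3, against 29.3, 29.8 and 27.2 in sham mice 1, 3 and 4. For both miRNAs the detected values of the groups overlap, and ischemia/reperfusion mouse 3 had the highest Ct. Ischemia/reperfusion mice 1 and 4 and sham mouse 2 had no Ct for either.

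The Ct of miR-204 exceeded that of miR-203 in each of the 5 mice. The distance was 0.70 and 1.60 cycles in ischemia/reperfusion mice 2 and 3, against 2.36, 2.19 and 1.06 cycles in sham mice 1, 3 and 4. It averaged 1.58 ± 0.711 cycles over the 5 mice (SD, n = 5), while the pair of ischemia/reperfusion values lay 3.45 cycles apart for miR-203 and 4.35 cycles apart for miR-204. These miRNAs are encoded on different chromosomes, 12 and 19, and share no seed.

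Relative to the reference, ischemia/reperfusion mouse 2 had the highest level of both. The delta Ct of miR-203 was 4.13 and 9.43 in ischemia/reperfusion mice 2 and 3, against 6.29, 8.57 and 8.22 in sham mice 1, 3 and 4. The delta Ct of miR-204 was 4.83 and 11.0 in ischemia/reperfusion mice 2 and 3, against 8.65, 10.8 and 9.28 in sham mice 1, 3 and 4. The ischemia/reperfusion wells thus enclose the sham wells for both miRNAs. By Ct, miR-203 ranked 16 of 82 and 47 of 91 detected assays in ischemia/reperfusion mice 2 and 3, against 37 of 127, 54 of 142 and 54 of 163 in sham mice 1, 3 and 4. miR-204 ranked 20 of 82 and 65 of 91 in ischemia/reperfusion mice 2 and 3, against 72 of 127, 86 of 142 and 71 of 163 in sham mice 1, 3 and 4.

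At the mean delta Ct of its 3 detected sham wells, 7.69 ± 1.23 (SD), miR-203 would have had a Ct of 28.7 and 29.4 in ischemia/reperfusion mice 1 and 4 and of 30.1 in sham mouse 2. For miR-204, at 9.56 ± 1.09 (SD, n = 3), the values were 30.6 and 31.2 in ischemia/reperfusion mice 1 and 4 and 32.01 in sham mouse 2. Both means leave out sham mouse 2, which had no Ct, so they describe the detected wells only. Counting every assay, 3 others shared the detection pattern of miR-203: miR-204, miR-99a and miR-574-3p. Their mean absolute distances in Ct from miR-203 over the 5 mice were 1.58, 1.68 and 2.01 cycles. The assay nearest to miR-204 was miR-99a at 1.56 cycles, ahead of miR-203 at 1.58 and miR-574-3p at 1.92. Of all assays, 41 were detected in sham mice 1, 3 and 4 and not in sham mouse 2. The same pattern as miR-194, detection in sham mice 3 and 4 alone, was found for 13 other assays, the nearest in Ct being miR-23b at a mean distance of 6.38 cycles.

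The detection of the 10 miRNAs was compared between groups first. Each of the 4 detected miRNAs was found in fewer ischemia/reperfusion than sham mice: 0 against 1 for miR-192, 0 against 2 for miR-194, and 2 against 3 for both miR-203 and miR-204. The same direction held for 107 of the 133 assays detected in 1 to 7 mice (80.5%). None of the 4 passed Fisher's exact test, with a two-sided p of 0.429 for miR-194 and of 1 for the others, and 1 for all after Benjamini-Hochberg adjustment over the 133 assays. Of these 133 assays the test called 0 (0%), and 0 had an unadjusted p under 0.05. With 4 against 4 mice the smallest p is 0.0286, which needs 4 detections against 0. After adjustment over 133 assays a count of 0 was thus close to fixed.

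Levels were then compared with limma. In the test of the 72 assays detected in at least 3 mice of each group, none of the 10 miRNAs could be included. That test called 0 of 72 (0%), with 10 at an unadjusted p under 0.05, and an exact permutation test on the same assays called 0. The smallest p of that test is 0.0286, so over 72 assays its count of 0 was close to fixed. In the test of the 131 assays detected in at least 3 of 8 mice, with wells not detected set to Ct 35, miR-203 and miR-204 were included. The mean of minus delta Ct for miR-203 was -10.22 after ischemia/reperfusion and -8.91 after sham surgery, which gave -1.31 ± 2.24 on the log2 scale (SE, n = 4 per group; limma adjusted p = 0.786). For miR-204 it was -10.79 after ischemia/reperfusion and -10.31 after sham surgery, a difference of -0.48 ± 1.96 (SE, n = 4 per group; limma adjusted p = 0.897). Neither difference exceeded its standard error. In that test limma called 1 of 131 assays (0.763%), hsa-miR-421, named after its values were seen. The median log2 difference of the 131 was -0.84, and 88 (67.2%) lay below 0, as did both miRNAs. With the card mean of the 54 assays found in all 8 mice as reference, miR-204 turned to 0.18 and the median of the 131 moved to -0.40.

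The direction depended on how wells without a Ct were treated. With those wells left out, the log2 difference was 0.91 ± 1.70 for miR-203 and 1.63 ± 1.86 for miR-204 (SE, 2 ischemia/reperfusion and 3 sham values; limma adjusted p = 0.782 and 0.695). The authors' deposited table, which also leaves them out, gives a fold of 1.88 for miR-203 and 3.11 for miR-204, ischemia/reperfusion over sham, and no fold for the other 8 miRNAs. Both differences moved with single mice. Without ischemia/reperfusion mouse 2 and with wells at Ct 35, the differences were -3.34 for miR-203 and -2.47 for miR-204 (limma adjusted p = 0.330 and 0.311). The difference of miR-204 was above 0 without ischemia/reperfusion mouse 1 (0.58), ischemia/reperfusion mouse 4 (0.37) or sham mouse 1 (0.075), and that of miR-203 shrank to -0.052 and -0.27 without ischemia/reperfusion mouse 1 or 4 and to -0.44 without sham mouse 1. Without sham mouse 2 the differences were -2.52 for miR-203 and -1.23 for miR-204.

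**Figure D3:**
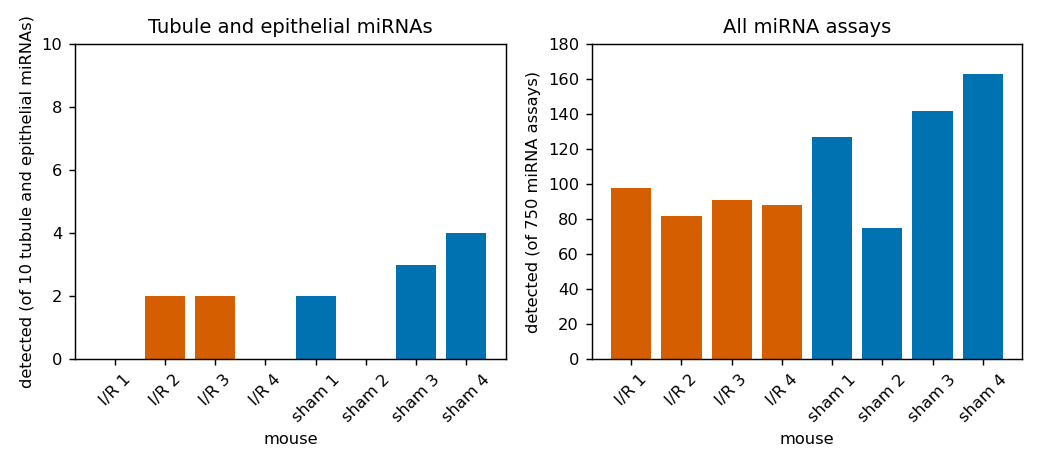
Number of the 10 tubule and epithelial miRNAs (left) and of all 750 miRNA assays (right) detected below Ct 35 in each mouse, ischemia/reperfusion (I/R, orange) left of sham (blue). Sham mouse 4 has the most of both, and sham mouse 2 has the fewest of all assays and none of the 10.

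The count of these miRNAs per mouse is given beside the yield of all assays and of the card that holds the 10. It was 0, 2, 2 and 0 of 10 in ischemia/reperfusion mice 1 to 4, against 2, 0, 3 and 4 in sham mice 1 to 4. All assays detected numbered 98, 82, 91 and 88 in ischemia/reperfusion mice 1 to 4, against 127, 75, 142 and 163 in sham mice 1 to 4. On the card that holds the 10, the assays detected numbered 64, 58, 60 and 56 in ischemia/reperfusion mice 1 to 4, against 88, 46, 101 and 119 in sham mice 1 to 4. Among the sham mice the order of the counts was the same for all of these. Among the ischemia/reperfusion mice, mouse 1 had the most assays on either count and none of the 10. Mouse 2, with 2 of the 10, had the fewest of all 750 assays, while mouse 4, with none of the 10, had the fewest on the card. The reference Ct of the card was 21.0, 22.4, 20.5 and 21.7 in ischemia/reperfusion mice 1 to 4, against 20.7, 22.4, 19.0 and 17.9 in sham mice 1 to 4. Sham mice 3 and 4, the only mice with miR-194, had the lowest reference Ct. The part of RNA input in these detections was not tested.

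Other miRNAs known from epithelium or kidney ranged from detection in every mouse to none. Of 12 such miRNAs, 4 were detected in all 8 mice, 3 in some and 5 in none. The miR-30 family, abundant in kidney but also present in endothelium and many other cells, gave miR-30a, miR-30b and miR-30c in all mice. The Ct of miR-30c lay between 23.8 and 25.6 after ischemia/reperfusion and between 21.3 and 26.0 after sham surgery. miR-31, known from keratinocytes and also from other cells, was detected in all mice, between Ct 28.1 and 28.6 after ischemia/reperfusion and between 26.1 and 28.5 after sham surgery. miR-30d was detected in 1 ischemia/reperfusion mouse and 3 sham mice, and miR-30e in 0 ischemia/reperfusion mice and 3 sham mice. miR-375, known from endocrine and gut epithelium, was below Ct 35 in sham mouse 3 alone, at 33.6.

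The remaining members of that list had no Ct in any mouse. They were miR-96, miR-182 and miR-183, which form 1 cluster known from sensory epithelium, miR-205, known from stratified epithelium, and miR-211, a relative of miR-204. Of the 4 members in the limma test of 72 assays, 0 passed, as held for all 72. All 4 differences lay below 0, as did 49 of the 72. Their median log2 difference was -0.23, against a median of -0.80 over the 72. The median over the 72 was -0.31 with the mean of the 54 assays detected in all 8 mice (by card) as reference, -0.88 against the control assays and -1.93 without normalization. With that mean miR-30a, miR-30c and miR-31 turned to 0.44, 0.42 and 0.52, and against the control assays miR-31 turned to 0.039. miR-31 was at -0.14 ± 0.84 (SE, n = 4 per group; limma adjusted p = 0.892). With wells not detected at Ct 35, 6 members were tested and 0 passed, with a median of -0.51. Of all 131 assays in that test 1 was called, and their median was -0.84.

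**Figure D4:**
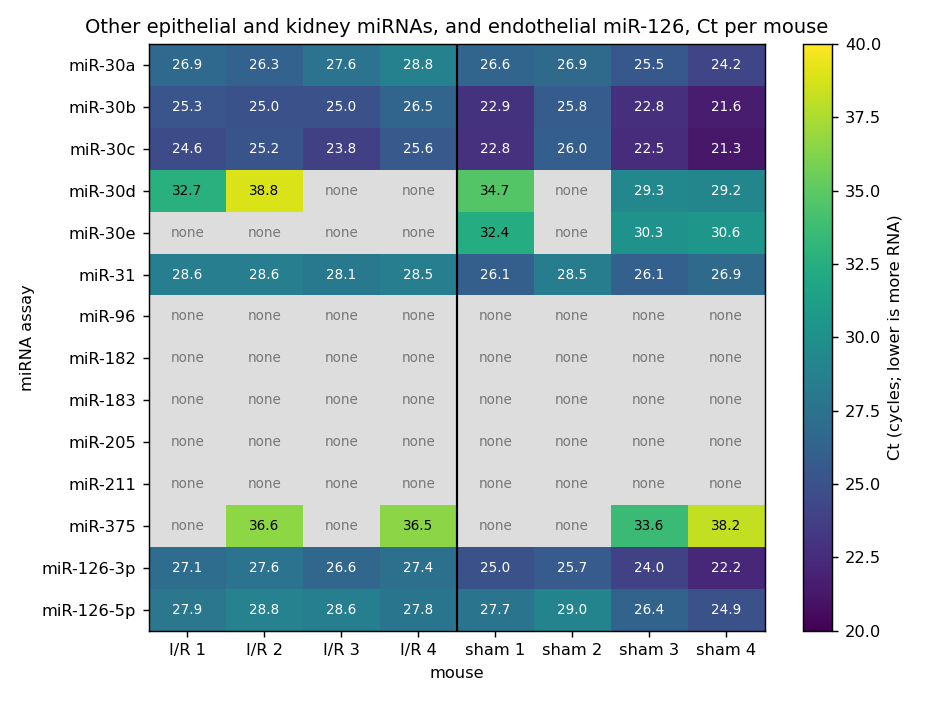
Ct of 12 other miRNAs known from epithelium or kidney, and of both arms of endothelial miR-126, in each mouse (ischemia/reperfusion, I/R, left of the line and sham right of it); colour and number give the Ct in cycles and grey wells were undetermined. miR-30a, miR-30b, miR-30c, miR-31 and both miR-126 arms have a Ct in all 8 mice, and miR-96, miR-182, miR-183, miR-205 and miR-211 in none.

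Markers of other cell types were set beside these counts. Both arms of endothelial miR-126 were detected in all 8 mice, miR-126-3p between Ct 26.6 and 27.6 after ischemia/reperfusion and between 22.2 and 25.7 after sham surgery. miR-126-5p lay between Ct 27.8 and 28.8 after ischemia/reperfusion and between 24.9 and 29.0 after sham surgery, so this arm overlapped between the groups. Relative to the reference, the log2 differences were -1.59 ± 0.57 for miR-126-3p and 0.11 ± 0.60 for miR-126-5p (SE, n = 4 per group). Their limma unadjusted p were 0.0221 and 0.862 and their adjusted p 0.228 and 0.892. Of 4 mesenchymal and smooth muscle markers, 3 were detected in each ischemia/reperfusion mouse, against 3, 2, 4 and 4 in sham mice 1 to 4. The fourth, miR-143, was below Ct 35 in sham mice 3 and 4 alone, the mice that had miR-194. In the limma test of 72 assays, the log2 differences of the other 3 were -3.95 ± 1.17 for miR-214 (3 sham values), -2.65 ± 0.92 for miR-199a-3p and -2.09 ± 0.84 for miR-145 (SE). Their unadjusted p were 0.0100, 0.0191 and 0.0347 and their limma adjusted p 0.228, 0.228 and 0.278. With undetermined wells at Ct 35, miR-214 was at -2.54 ± 1.57 (SE; limma unadjusted p = 0.141, adjusted p = 0.463). At that setting all 3 differences were larger in size than those of miR-203 and miR-204. miR-194 was tested only with a filter of at least 2 of 8 mice, which it passed through sham mice 3 and 4 alone. Its difference was -5.06 ± 2.54 (SE; limma adjusted p = 0.401) and rests on 2 wells with a Ct. All its ischemia/reperfusion values were undetermined wells set to Ct 35. That set value largely fixes the size of the difference, which is not ranked beside the others. The part of the marker differences in the detection counts was not tested. Of 4 leukocyte markers, 3, 2, 3 and 2 were detected in ischemia/reperfusion mice 1 to 4, against 2, 2, 2 and 3 in sham mice 1 to 4. In the limma test of 72 assays, miR-150 was at -1.62 ± 2.00 and miR-223 at 0.63 ± 1.00 (SE; limma adjusted p = 0.626 and 0.714). With undetermined wells at Ct 35, miR-142-3p was at 2.12 ± 0.94 (SE; limma unadjusted p = 0.0522, adjusted p = 0.298). The erythroid markers miR-144, miR-451 and miR-486 had no Ct in any mouse. Of 4 striated muscle markers, 1, 0, 0 and 1 were detected in ischemia/reperfusion mice 1 to 4, against 2, 1, 1 and 1 in sham mice 1 to 4. Whether the cells that carried miR-192, miR-194, miR-203 or miR-204 were epithelial was not tested.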

How the data were processed

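MicroRNAs were measured by real-time PCR (7900HT Fast system, RNA from a mirVana kit) in 8 samples, 1 per mouse, per the labels' protocols. The authors deposited Ct values, delta Ct values, which are on a log2 scale, and, per the file headers, a linear fold or ratio computed as 2 raised to mean sham delta Ct less mean experimental delta Ct. Set against the Ct table, each deposited delta Ct was the Ct minus 1 reference per sample and card. In 13 wells of 9 assays the deposited delta Ct came from an absent Ct, and none was a well of the 10 miRNAs. Card type, instrument software, reference RNA and wells per value were not stated in the labels, so the spread between mice sets the precision.

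Assays were detected below Ct 35. Of 769 rows, 757 assays were distinct (750 miRNA, 7 control), and repeated wells were averaged. Fisher's exact test was used for detection. Minus delta Ct was compared with limma 3.58.1 in R 4.3.3 (lmFit, eBayes, two-sided), adjusted by Benjamini-Hochberg over all assays tested at 0.05. The fit was also run on simulated data. The outcome of that run is not given here, so it says nothing about the fits of the 10 miRNAs. Alternatives were other references, detection limits, filters and values for undetermined wells, an exact permutation test, other moderation, a block by mouse number, and leaving out each mouse. The 10 miRNAs, the lists and the naming rule were chosen with earlier results of these data known. The rule names the 10 miRNAs, the other epithelial and kidney list, the cell type markers, control assays and the up to 5 assays nearest in Ct with the same detection pattern.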

Additional observations from a re-analysis of the deposited data

Results flagged for a closer look

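In the test for a single distant mouse within a group of 4, 34 groups of values were examined, of which chance flags about 1 in 20, and 3 stood out. With undetermined wells at Ct 35, miR-192 in the sham mice stood out because sham mouse 4, at Ct 29.8, was the only one with a Ct (its gap to the next value was 1.0 of the whole range, as it is for any assay with a Ct in a single mouse, so the chance rate does not apply). miR-203 in the sham mice stood out because sham mouse 2 had no Ct, against 26.9, 27.6 and 26.2 in sham mice 1, 3 and 4 (gap 0.840 of the range). That gap is set by the value of Ct 35 given to the undetermined well and is no measurement. miR-31 after ischemia/reperfusion stood out at mouse 3, with a Ct of 28.1 against 28.5 to 28.6 in the others (gap 0.924 of the range), a distance of under 1 cycle.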

How the results depend on the processing

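None of the 10 miRNAs passed the detection test or either limma test under any alternative run (0 in 11, 17 and 19 alternatives). For the detection test this outcome was close to fixed, since its smallest p is 0.0286 before adjustment. In limma with both groups detected, only the filter of at least 2 mice of each group let any of them in, miR-203 and miR-204. Under its other settings that test held none of the 10, so those zeros say nothing about them. The number of mouse-by-miRNA detections did not change with the limit at Ct 32, Ct 38 or any Ct, nor with every assay of the same name. With each mouse omitted in turn, it lay between 2 and 4 after ischemia/reperfusion (2 without mouse 2 or mouse 3) and between 5 and 9 in sham (5 without mouse 4). miR-204 in ischemia/reperfusion mouse 3 moved from rank percent 71.4 to 59.6 of detected assays at a limit of Ct 38, because late assays were added. The log2 difference of miR-203 was above 0 in 1 of 20 alternatives, at 0.91 with undetermined wells left out, and lay between -3.34 and -0.052 with each mouse omitted in turn. That of miR-204 was above 0 in 6 of 20: at 1.63 with undetermined wells left out, 0.18 against the mean of miRNAs detected in all samples, 0.27 at a limit of Ct 32, and without ischemia/reperfusion mouse 1 or 4 or sham mouse 1 (between -2.47 and 0.58 with each mouse omitted). The limma adjusted p lay between 0.330 and 0.998 for miR-203 and between 0.311 and 0.982 for miR-204. With mouse number as a replicate block, the differences stayed at -1.31 (limma adjusted p = 0.865) and -0.48 (0.922), and 0 members passed. Same-numbered mice correlated at -0.38, -0.15, 0.020 and -0.25 over 54 assays, so the numbers were not taken as pairs. With undetermined wells at Ct 35, limma called 1 of 131 assays, 0 with the block and 6 of 129 without sham mouse 2, and the exact permutation test, whose smallest p is 0.0286, called 0 (9 at an unadjusted p under 0.05). The highest Ct of the 10 miRNAs was 31.6, and the number of sorted cells behind each undetermined well is not stated in the labels.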
